A study of Mus musculus with 48 samples.

Results

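The 36 genes described here carry out fatty acid oxidation and ketogenesis in liver or are textbook targets of PPARα, the nuclear receptor that switches this programme on. They were taken by gene symbol from a list of 38, and all but Dci and Peci, older symbols of Eci1 and Eci2, were in the table of 15041 genes. By role, 19 act in mitochondria, 9 in peroxisomes and 2 in ketone body metabolism, and 6 are PPARα targets or regulators. All 36 passed the filter for testing (0.5 FPKM or more in at least 3 libraries), as did 13765 genes in all. FPKM is the number of reads per length of gene and per depth of the library.

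Livers came from wild-type C57BL/6 mice and from mice that the labels call SHP knockouts (SHP is a transcriptional repressor encoded by Nr0b2). Ethanol mice received a Lieber-DeCarli liquid diet with 5% ethanol for 10 days and a binge of 5 g/kg ethanol at 9am on day 11, and control mice received maltose in the diet and a binge of 9 g/kg maltose dextrin. Livers were then taken at 6pm, midnight, 6am and noon, 3 mice for each of the 16 combinations of genotype label, treatment and time, which gave 48 libraries. Every liver was thus taken at a set interval after the 9am binge, so clock time and time since the binge cannot be told apart. The study's title names an axis of SHP, REV-ERBα and CYP4A in alcohol injury of the liver. The sources used here do not give age, sex or the background strain of the knockout-labelled mice. Groups follow the sample titles and the design text. A separate treatment entry said Control for every 6am and midnight liver and Ethanol for every noon and 6pm liver, which differs from the titles in 24 of 48 libraries.

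Depth was 9605636 to 19780144 reads per library, recovered from the steps of the FPKM values. Nr0b2 was read in every library. Its scaled level ranged from 6.56 to 39.6 FPKM in wild-type controls and from 3.69 to 30.0 in knockout-labelled controls, so the groups overlapped and the genotype is named by label only. The deleted stretch of Nr0b2 is not known here, so these reads may lie outside it and do not check the genotype. Hepatocyte markers summed to 43130 to 78970 FPKM in each liver. Several livers stood apart. The mean log2 level of 8 acute phase genes was above 10 in wild-type control 6pm replicates 0 and 2 and in knockout-labelled ethanol replicate 1 at noon and at 6pm. At midnight the 3 knockout-labelled ethanol livers had values of 8.95 to 9.54. Knockout-labelled ethanol midnight replicate 0 also carried exocrine pancreas transcripts, at 13290 summed FPKM against at most 33.9 in the other 47. Wild-type ethanol 6am replicate 1 was the highest of the 12 wild-type ethanol livers for 26 of the 36 members (72.22%) and for 17.05% of all genes tested. In bulk liver RNA, fewer cells of a type and less RNA per cell cannot be told apart.

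Fatty acids are activated to acyl-CoA, passed into mitochondria by the carnitine shuttle and shortened in a repeated spiral of dehydrogenation, hydration, dehydrogenation and thiolytic cleavage. Peroxisomes shorten very long and branched chains first, and hepatocytes turn the acetyl-CoA into ketone bodies for export. PPARα binds fatty acids and, paired with RXR, occupies direct repeats of AGGTCA near many of these genes, above all in fasting.

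Fabp1, the cytosolic fatty acid carrier of hepatocytes, was by far the highest member, at 6714 ± 1618 FPKM (mean ± SD, n = 12) in wild-type controls. Levels here are FPKM multiplied by a scale factor per library (0.807 to 1.30) that corrects for differences in RNA composition. Acaa2, the mitochondrial 3-ketoacyl-CoA thiolase, followed at 557 ± 66.8 FPKM, then Acaa1b, a peroxisomal thiolase, at 275 ± 101 FPKM. The neighbours Etfa, Acadvl and Acsl5 lay within 1 SD of each other at 161 ± 11.3 FPKM, 162 ± 10.3 FPKM and 168 ± 30.6 FPKM. At the low end were Pdk4 at 8.59 ± 5.17 FPKM and Ppargc1b at 0.808 ± 0.289 FPKM. Hadhb, the beta subunit of the trifunctional protein, was listed at only 3.995 ± 0.336 FPKM, while Hadha, the alpha subunit, was at 65.3 ± 6.97 FPKM. Of the 50-base stretches of Hadhb transcripts, 19.74% occur in other genes. The sources used here do not say how such reads were counted.

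Sequences are shown for 3 members of the target group, because their RNA changed with ethanol and a RefSeq promoter window of each matches the PPARα motif with at most 2 mismatches. RefSeq promoter windows (GRCm38.p6, 250 bases before to 50 after the start) were available for 29 of the 36 members, in 32 windows. The motif searched on both strands was AGGTCANAGGTCA. With at most 2 mismatches over its defined bases it occurred in 5 member windows (15.62%), those of Fabp1, Cd36, Creb3l3, Etfa and Slc25a20, and in 3.86% of all 32851 windows. With at most 1 mismatch it occurred in the Fabp1 window alone among members and in 0.55% of all windows, and no member window held it without mismatch. Each line below gives the 250 bases before the start, 5′ to 3′ on the gene's strand, with the match in capitals. A match is a description of the letters and not evidence of binding. The stretches are chr6:71199629-71199878 (plus strand) for Fabp1, chr5:17835897-17836146 (minus strand) for Cd36 and chr10:81092592-81092841 (minus strand) for Creb3l3. The windows shown for Cd36 and Creb3l3 lie inside the annotated gene, away from its 5′ end. Creb3l3 has a further RefSeq window at the annotated 5′ end, whose nearest match has 4 mismatches.
Fabp1: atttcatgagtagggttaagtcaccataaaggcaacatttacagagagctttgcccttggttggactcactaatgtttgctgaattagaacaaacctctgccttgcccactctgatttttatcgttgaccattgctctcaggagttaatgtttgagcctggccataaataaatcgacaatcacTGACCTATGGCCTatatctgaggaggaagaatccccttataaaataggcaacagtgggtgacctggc
Cd36: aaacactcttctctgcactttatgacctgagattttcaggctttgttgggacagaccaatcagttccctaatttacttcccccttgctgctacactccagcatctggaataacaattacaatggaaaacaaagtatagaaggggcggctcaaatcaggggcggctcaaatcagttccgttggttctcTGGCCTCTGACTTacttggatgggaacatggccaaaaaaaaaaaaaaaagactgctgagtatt
Creb3l3: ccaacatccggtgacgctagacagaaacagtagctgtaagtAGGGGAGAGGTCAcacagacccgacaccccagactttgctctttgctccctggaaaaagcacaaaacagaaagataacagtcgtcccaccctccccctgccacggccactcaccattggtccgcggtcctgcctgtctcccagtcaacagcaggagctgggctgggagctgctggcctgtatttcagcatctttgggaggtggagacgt

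Ethanol in wild-type mice moved members in both directions. Cd36, a fatty acid uptake receptor, was the most raised (log2 difference 0.89), and Fabp1 the most lowered (-1.19). Raised with Cd36 were Vnn1, Crat, Acaa1a, Acadm, Crot, Creb3l3, Cpt2, Acadl and Etfb, and lowered with Fabp1 were Acaa1b, Acsl5 and Acads. A gene was called when limma's moderated test, averaged over the 4 times, gave a Benjamini-Hochberg adjusted p of at most 0.05 over all 13765 genes. Called higher were 10 of 36 members, against 16.6% of all genes, and called lower were 4, against 13.7%. The median member differed by 0.07 on the log2 scale and the median gene by 0.01. Calls of Acadm, Acsl5, Acaa1a, Etfb, Cd36, Creb3l3 and Fabp1 held in all 13 alternative settings and in all 48 fits that left out 1 library. Without wild-type ethanol 6am replicate 1, 7 members were higher and 8 lower, and 4009 of all genes were called in either direction. Without the 4 livers of highest acute phase level the counts were 6 and 8, and without the midnight livers 8 and 2. Over all genes 4248 and 2885 were then called in either direction, against 4170 with all livers. Array weights, which weight each library by its spread, gave 10 lower, and calls over all genes in either direction went from 4170 to 6046.

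With the knockout label, the most lowered members were Acaa1b (-1.14), Pdk4 (-0.90), Fabp1 (-0.80) and Acsl5 (-0.75). Vnn1 was the most raised (0.82), followed by Crot (0.46). Also lowered were Decr2 and Cpt1a, and also raised were Creb3l3, Acaa1a, Etfb, Acat1, Ech1 and Acadvl. Called higher were 8 of 36 members, against 16.8% of all genes, and called lower were 6, against 14.8%. The median member differed by 0.08 and the median gene by 0.00. Calls of Acaa1b, Acsl5, Fabp1, Pdk4 and Vnn1 held in all 13 settings and all 48 fits that left out 1 library. FPKM as deposited, without the scale factors, shifted the median gene by -0.20 in this comparison, and 1 member was then higher and 14 lower, while of all genes called the share higher went from 53.05% to 7.42%. Without the 4 livers of highest acute phase level 4 members were higher and 4 lower, and without the midnight livers 14 and 4. Over all genes 4000 and 4498 were then called in either direction, against 4347 with all livers. Array weights gave 15 higher, with 5612 of all genes called against 4347. Leaving out any of 10 single livers gave 5 higher: control 6am replicates 1 and 2, 6pm replicate 1, midnight replicate 0 and noon replicate 1, and ethanol 6pm replicates 0 and 1, midnight replicate 1 and noon replicates 0 and 1.

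**Figure D1:**
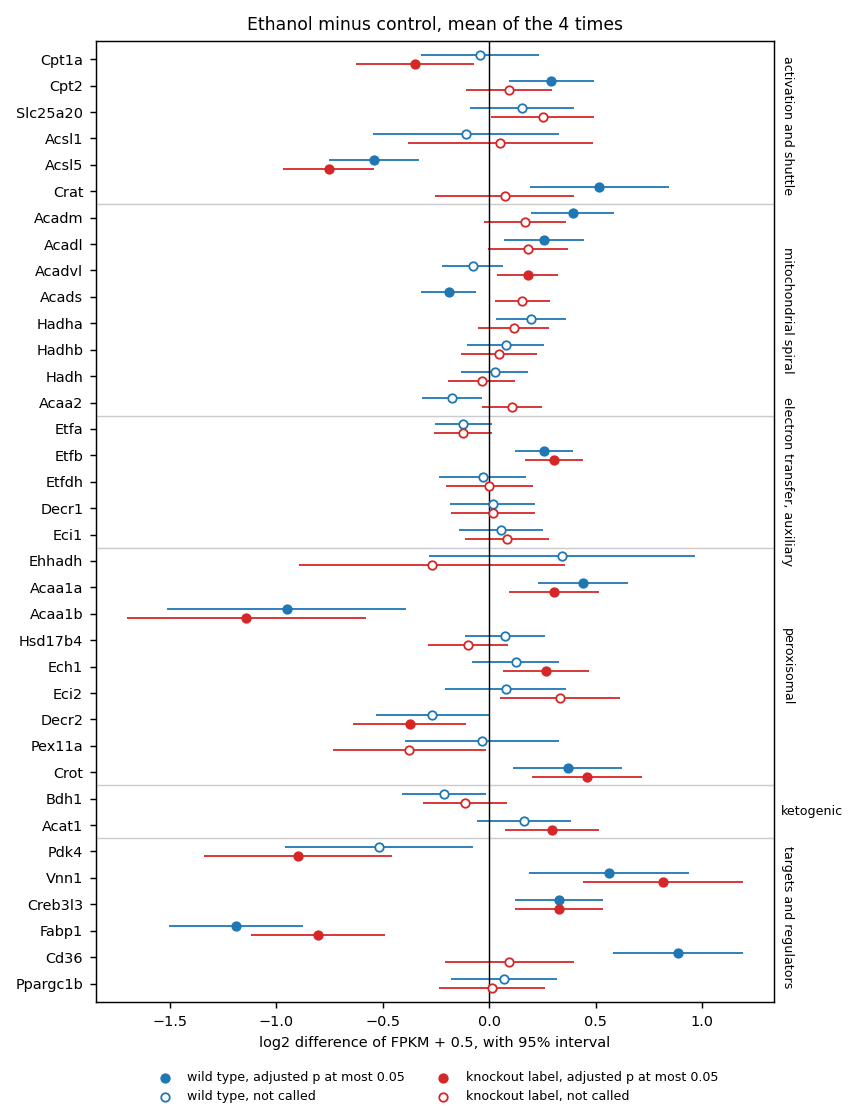
Ethanol minus control for each member, as log2 differences averaged over 4 times (x axis, with 95% intervals), in wild type (blue) and with the knockout label (red). Filled points have an adjusted p of at most 0.05: Cd36 is filled at 0.89 in wild type and open at 0.10 with the knockout label, and Fabp1 and Acaa1b lie left of 0 in both.

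A test of the difference between both ethanol effects called 2 members. The effect on Cd36 was lower with the knockout label by -0.79, adjusted p = 0.0167, a call that held in all 12 settings where the test could be run and in all 48 fits without 1 library. That on Acads, the short-chain acyl-CoA dehydrogenase, was higher by 0.35, adjusted p = 0.0138. The shares of all genes were 3.69% higher and 4.32% lower, and 1 member went each way. FPKM as deposited moved the median gene by -0.20 here, called 10 members, all lower, and ended the call of Acads. Array weights called 4 members, with 2842 of all genes called against 1102. The share of higher among all calls was 46.1% with the scale factors and 5.04% without.

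In control livers, the knockout label went with lower levels of Vnn1 (-0.82), Fabp1 (-0.67), Crot (-0.64), Acsl1 (-0.62), Eci1, Decr1, Acaa2, Etfdh, Acat1, Acadvl and Etfb, and with higher levels of Bdh1 (0.57) and Cpt1a (0.44). These were 11 members lower, against 16.9% of all genes, and 2 higher, against 15.4%. The median member differed by -0.20 and the median gene by -0.01. Of the 5 electron transfer and auxiliary members, 4 were lower. With ethanol, 12 members were lower, against 15.8% of all genes, and 2 higher, against 12.6%, with a median member of -0.21. Cd36 (-0.71), Pex11a (-0.68), Pdk4 (-0.66), Vnn1, Crot, Acadm, Acaa1a, Hsd17b4, Decr1, Eci1, Cpt2 and Etfb were lower, and Bdh1 (0.67) and Acads (0.35) higher. Each pair of genotype comparisons uses its own livers, and the ethanol and genotype comparisons share livers. Bdh1, Crot, Vnn1, Fabp1 and Acaa2 in controls, and Bdh1, Acads, Cd36 and Crot with ethanol, were called in all 13 settings and all 48 fits without 1 library. Without the midnight livers 7 members differed in controls and 5 with ethanol. Calls over all genes were then 3539 against 4457 in controls and 2766 against 3899 with ethanol. Array weights called 22 members in controls, with 6087 of all genes called against 4457. FPKM as deposited shifted the median gene by 0.11 in controls, where 4 members were then higher and 4 lower. Of all genes, 4135 were then called higher and 812 lower in controls, against 2124 and 2333 with the scale factors. The share of higher among all calls went from 47.66% to 83.59% in controls and from 44.37% to 20.18% with ethanol.

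**Figure D2:**
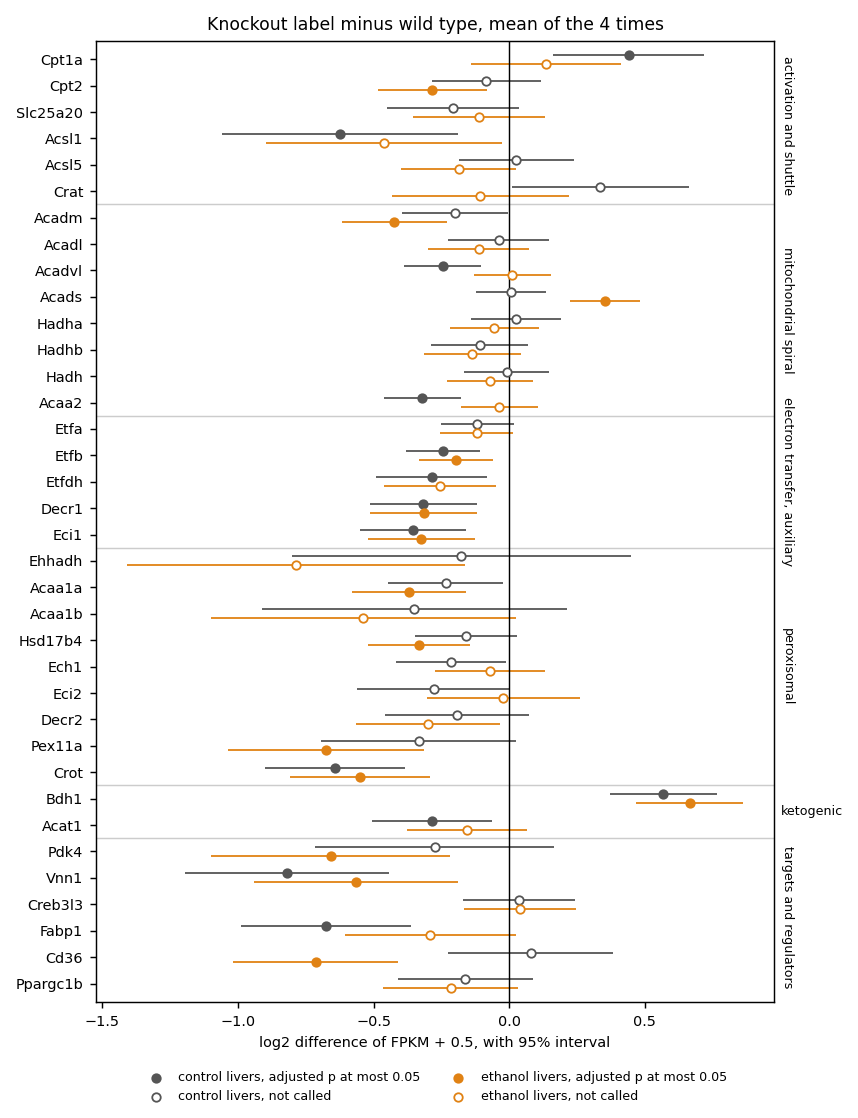
Knockout label minus wild type for each member, as log2 differences averaged over 4 times (x axis, with 95% intervals), in control (grey) and ethanol livers (orange). Filled points have an adjusted p of at most 0.05: Bdh1 is filled right of 0 in both, and Cd36 lies at 0.08 in controls and -0.71 with ethanol.

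Most calls for time of collection came in knockout-labelled ethanol livers. There 25 of 36 members differed among the 4 times in limma's F test, against 38.2% of all genes. Of these 25 members, 23 had their lowest mean at midnight, a share that was not computed for all genes called in this arm. Members called were 2 in wild-type controls (Crot and Pdk4, against 8.35% of all genes), 4 in wild-type ethanol livers (Crot, Acsl5, Cpt1a and Acads, against 20.3%) and 6 in knockout-labelled controls (Crot, Pdk4, Etfb, Eci2, Cpt1a and Hadh, against 12.7%). The 25 comprised 7 of 8 enzymes of the mitochondrial spiral, all 5 electron transfer and auxiliary members, 7 of 9 peroxisomal members, 3 of 6 in activation and shuttle, 3 of 6 targets and neither ketogenic member. Without the midnight livers 3 members and 2031 genes were called. FPKM as deposited gave 14 members, while calls over all genes in that arm went from 5253 to 6139. In wild-type controls it gave 4 members, and all genes went from 1150 to 1526. Array weights gave 11 in wild-type controls, 19 in wild-type ethanol livers and 27 in knockout-labelled controls, while calls over all genes went from 1150 to 3213, from 2789 to 6331 and from 1754 to 4405. A fit of the 24 wild-type libraries gave 7 in ethanol livers, while calls over all genes went from 2789 to 3976. The wild-type ethanol count was 10, 8 or 9 without 6am replicate 0, 1 or 2, the wild-type control count was 1 without 6pm replicate 2, and the knockout-labelled control count was 2 without 6pm replicate 2.

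**Figure D3:**
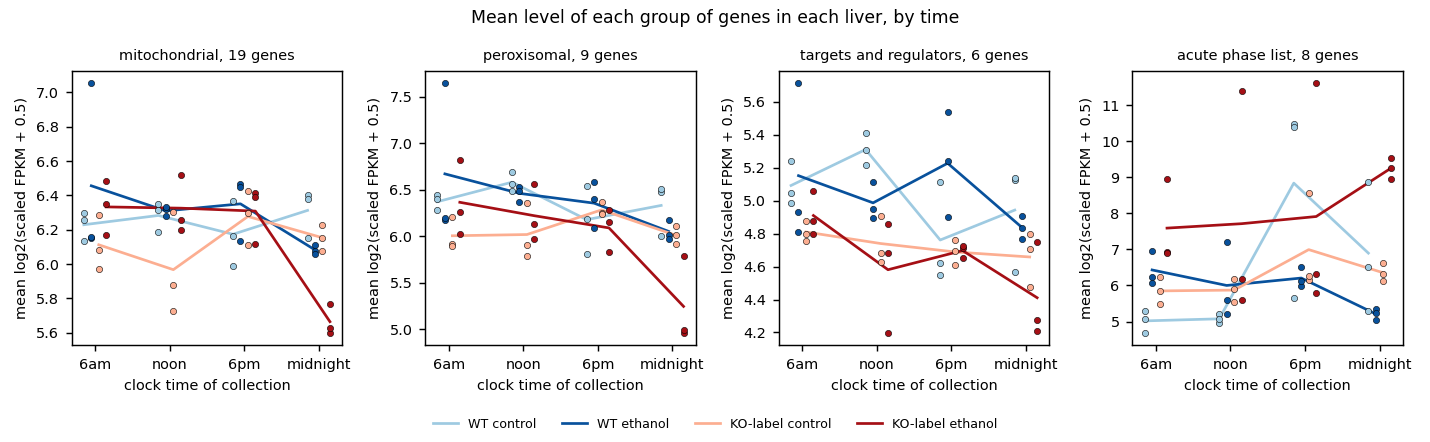
Mean log2(scaled FPKM + 0.5) of 3 classes of members and of 8 acute phase genes (y axes) against clock time of collection, 1 point per liver and a line through the means of 3. In knockout-labelled ethanol livers at midnight (dark red) the mitochondrial mean is 5.6 to 5.77 and the acute phase mean 8.95 to 9.54, and 1 wild-type ethanol 6am liver has a peroxisomal mean of 7.65.

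At midnight with the knockout label, all 3 ethanol livers lay below all 3 controls for 26 of 36 members, against 14% of all genes, and above them for 2 (Crot and Vnn1), against 10.3%. The tested calls at that time were 8, all lower, against 9.23% of all genes in either direction: Acaa1b, Fabp1, Decr2, Acsl5, Hsd17b4, Etfa, Decr1 and Hadh. The median member differed by -0.43 and the median gene by 0.01. The mitochondrial class mean was 5.6, 5.63 and 5.77 in ethanol livers and 6.08, 6.15 and 6.23 in controls. The acute phase mean was 8.95, 9.26 and 9.54 in the same ethanol livers and 6.11, 6.31 and 6.63 in controls, and its part in the result was not tested. In wild-type ethanol livers at midnight, by comparison, the acute phase mean was 5.05 to 5.34. Without the liver with pancreas transcripts, 30 members lay below the controls in both remaining livers, as did 25.2% of all genes. At noon with the knockout label 9 members were called higher and 2 lower, against 22.4% of all genes in either direction. The split of those genes by direction was not computed. The median member differed by 0.40 at noon and the median gene by 0.01. At 6am and 6pm 4 and 1 members were called, against 8.3% and 7.09%.

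In wild type the single-time calls were 6 at 6am (against 12% of all genes), 2 at noon (7.45%), 7 at 6pm (18.4%) and 6 at midnight (9.66%). Cd36 was called at 6am, 6pm and midnight, and no other member was called at more than 2 times. A test of whether the ethanol effect changed with time called Pdk4 alone in wild type (10.6% of all genes) and 11 members with the knockout label (10.9%). Those 11 were Cpt1a, Acadvl, Acads, Hadh, Acaa2, Etfa, Etfb, Decr1, Acaa1a, Hsd17b4 and Eci2. Without the midnight livers 0 members were called by limma with the knockout label, as were 67 of all genes. The knockout-labelled count was 4 on FPKM as deposited (2343 of all genes, against 1507), 3 in a fit of 24 libraries (190 of all genes) and 30 with array weights (4603 of all genes). In wild type, fits of 24 libraries gave 3 members and array weights 15, with 2601 and 4448 of all genes called against 1458. The knockout-labelled count was 23 without wild-type ethanol 6am replicate 1, with 1884 of all genes called against 1507. It was 5 to 7 without knockout-labelled control midnight replicate 1 or 2 or control noon replicate 1 or 2. It also lay in that range without knockout-labelled ethanol midnight replicate 1 or 2 or ethanol noon replicate 0 or 1. The call of Pdk4 in wild type was lost without ethanol 6pm replicate 0, and the count was 4 without ethanol 6am replicate 1 and 3 without ethanol 6am replicate 2. It was 2 without wild-type control 6pm replicate 0, midnight replicate 1 or noon replicate 2 or ethanol noon replicate 1, and without knockout-labelled control 6pm replicate 0 or ethanol 6am replicate 0 or 2, 6pm replicate 1, midnight replicate 0 or noon replicate 0 or 1.

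**Figure D4:**
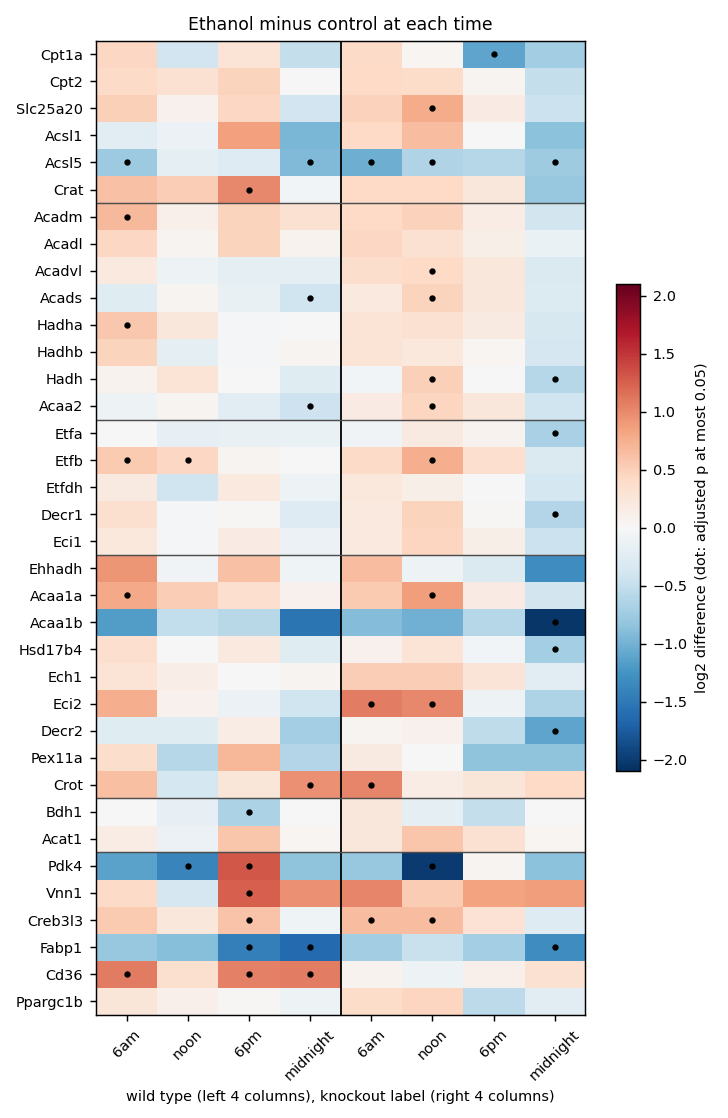
Ethanol minus control at each time for each member, as log2 differences (colour scale), with wild type in the left 4 columns and the knockout label in the right 4. Dots mark an adjusted p of at most 0.05: 8 members are dotted at midnight with the knockout label, all blue, and 11 at noon, 9 of them red.

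Cpt1a, the rate-limiting carnitine palmitoyltransferase of the outer mitochondrial membrane (chromosome 19, 3322334 to 3385733, GRCm38), opened the shuttle. In each arm of 12 livers the lowest, median and highest level is given. Cpt1a read 70.2, 92.9 and 134 FPKM in wild-type controls and 50.8, 86.2 and 276 FPKM with ethanol. Cpt1a with the knockout label read 88.9, 136 and 202 FPKM in controls and 48.8, 125 and 193 FPKM with ethanol. All 4 arms overlapped. Its ethanol effect was -0.04 (SE 0.14, adjusted p = 0.853) in wild type and -0.35 (SE 0.14, adjusted p = 0.0498) with the knockout label, a call lost in 7 of 13 settings and in 36 of 48 fits without 1 library. Mean Cpt1a at 6am, noon, 6pm and midnight was 89.1, 116, 113 and 82.8 FPKM in wild-type controls and 146, 87.5, 138 and 58.6 FPKM with ethanol. Knockout-labelled Cpt1a means were 116, 158, 186 and 95.9 FPKM in controls and 155, 162, 88.6 and 58.3 FPKM with ethanol, and SDs of 3 livers ranged from 2.44 to 113 over the 16 groups. The lowest group mean of each arm was at midnight, and at 6pm with the knockout label ethanol lowered it by -1.11 on the log2 scale.

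Cpt2, the inner-membrane partner, was raised by ethanol in wild type (0.29 (SE 0.10, adjusted p = 0.0236)) and not called with the knockout label (0.09 (SE 0.10, adjusted p = 0.501)). Mean Cpt2 at 6am, noon, 6pm and midnight was 58.5, 57.2, 53.0 and 65.6 FPKM in wild-type controls and 83.3, 71.5, 73.5 and 65.1 FPKM with ethanol. Knockout-labelled Cpt2 means were 57.9, 49.5, 54.5 and 59.5 FPKM in controls and 78.4, 64.3, 56.6 and 42.4 FPKM with ethanol, and SDs of 3 livers ranged from 2.40 to 42.4 over the 16 groups. Its wild-type call was lost without 6am replicate 1, whose level of 132 FPKM was the highest of all livers. Slc25a20, the carrier that exchanges acylcarnitine for carnitine, gave 0.15 and 0.25, neither called. Crat, carnitine acetyltransferase, rose in wild type (0.52 (SE 0.16, adjusted p = 0.0138)), from a median of 12.2 to 14.7 FPKM, and gave 0.07 with the knockout label.

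Acsl5, an acyl-CoA synthetase that activates long-chain fatty acids (chromosome 19, 55251938 to 55297720), was lowered in both genotype labels. Acsl5 read 104, 172 and 206 FPKM in wild-type controls and 79.0, 113 and 176 FPKM with ethanol. Acsl5 with the knockout label read 118, 168 and 218 FPKM in controls and 74.4, 102 and 146 FPKM with ethanol. With the knockout label the ethanol median lay below the lowest control. The arms overlapped in both labels. In wild type all 3 midnight ethanol livers lay below the lowest control, and at each other time at least 1 ethanol liver lay above it. The effects were -0.54 (SE 0.10, adjusted p = 0.000148) in wild type and -0.75 (SE 0.10, adjusted p = 1.45e-06) with the knockout label. Mean Acsl5 at 6am, noon, 6pm and midnight was 176, 188, 139 and 169.5 FPKM in wild-type controls and 105, 162, 113 and 87.8 FPKM with ethanol. Knockout-labelled Acsl5 means were 190.5, 173, 158 and 161 FPKM in controls and 93.3, 114, 105 and 94.6 FPKM with ethanol, and SDs of 3 livers ranged from 7.62 to 38.4 over the 16 groups. Part of Acsl5 (8.31% of its exon bases) overlaps Zdhhc6 on the opposite strand, and the sources used here do not say whether counting used strand. Acsl1, the other long-chain synthetase here, differed with ethanol by -0.11 and 0.05, neither called, and was lower with the knockout label in controls.

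Among enzymes of the spiral, Acadm, the medium-chain acyl-CoA dehydrogenase, had the largest ethanol difference. Acadm read 75.6, 89.8 and 116 FPKM in wild-type controls and 104, 108 and 241 FPKM with ethanol. Acadm with the knockout label read 62.8, 83.0 and 99.9 FPKM in controls and 62.3, 95.8 and 128 FPKM with ethanol. All wild-type controls but noon replicate 1 and 6pm replicate 1 lay below the lowest ethanol liver, and the knockout-labelled arms overlapped. Ethanol raised it by 0.39 (SE 0.10, adjusted p = 0.00196) in wild type, and the effect with the knockout label was 0.17 (SE 0.10, adjusted p = 0.186). Mean Acadm at 6am, noon, 6pm and midnight was 86.8, 97.9, 97.6 and 89.7 FPKM in wild-type controls and 152, 105, 135 and 111 FPKM with ethanol. Knockout-labelled Acadm means were 77.2, 70.5, 93.7 and 83.6 FPKM in controls and 103, 98.7, 106 and 63.9 FPKM with ethanol, and SDs of 3 livers ranged from 0.494 to 77.8 over the 16 groups. For Acadl, the long-chain enzyme, the effects were 0.26 (SE 0.09, adjusted p = 0.0321) in wild type and 0.18 (SE 0.09, adjusted p = 0.129) with the knockout label. Mean Acadl at 6am, noon, 6pm and midnight was 97.9, 103, 91.8 and 105 FPKM in wild-type controls and 143, 107, 126 and 109.7 FPKM with ethanol. Knockout-labelled Acadl means were 91.0, 85.5, 114 and 98.0 FPKM in controls and 123, 106, 124 and 89.3 FPKM with ethanol, and SDs of 3 livers ranged from 0.575 to 72.9 over the 16 groups. Its wild-type call was lost in 3 of 13 settings and 7 of 48 fits without 1 library.

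Acads gave ethanol effects of opposite sign in the genotype labels. Acads read 46.7, 63.1 and 68.5 FPKM in wild-type controls and 43.3, 50.0 and 70.9 FPKM with ethanol. Acads with the knockout label read 47.9, 60.9 and 78.7 FPKM in controls and 48.1, 68.4 and 88.4 FPKM with ethanol. The wild-type ethanol median was below the control median, and the knockout-labelled one above it, with overlap in both. The effect was -0.19 (SE 0.06, adjusted p = 0.0216) in wild type and 0.16 (SE 0.06, adjusted p = 0.0571) with the knockout label, of which only the first was called. Mean Acads at 6am, noon, 6pm and midnight was 62.0, 63.8, 53.9 and 64.6 FPKM in wild-type controls and 52.4, 66.7, 47.99 and 48.2 FPKM with ethanol. Knockout-labelled Acads means were 58.9, 57.6, 69.4 and 60.1 FPKM in controls and 68.1, 79.0, 81.3 and 49.4 FPKM with ethanol, and SDs of 3 livers ranged from 0.836 to 13.1 over the 16 groups. Wild-type ethanol livers peaked at noon, and knockout-labelled ones were high at noon and 6pm and low at midnight. Acadvl, the very-long-chain dehydrogenase, gave -0.08 (SE 0.07, adjusted p = 0.444) and, with the knockout label, 0.18 (SE 0.07, adjusted p = 0.0475), a call lost in 36 of 48 fits without 1 library. On FPKM as deposited that effect was -0.074, in the other direction. Dvl2 overlaps 42.85% of its exon bases on the opposite strand.

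Hadha, which hydrates and oxidises long-chain intermediates, was not called over the 4 times. Mean Hadha at 6am, noon, 6pm and midnight was 60.5, 61.3, 71.9 and 67.3 FPKM in wild-type controls and 92.3, 73.0, 70.4 and 67.7 FPKM with ethanol. Knockout-labelled Hadha means were 68.1, 62.9, 70.9 and 64.6 FPKM in controls and 83.1, 78.8, 81.2 and 51.0 FPKM with ethanol, and SDs of 3 livers ranged from 1.51 to 31.2 over the 16 groups. It rose at 6am in wild type by 0.56 on the log2 scale, where replicate 1 read 128 FPKM. Hadh, the short-chain hydroxyacyl-CoA dehydrogenase, gave 0.51 at noon and -0.60 at midnight with the knockout label, both called. Mean Hadh at 6am, noon, 6pm and midnight was 65.7, 70.8, 63.9 and 74.5 FPKM in wild-type controls and 69.3, 86.5, 63.1 and 62.4 FPKM with ethanol. Knockout-labelled Hadh means were 64.2, 57.1, 84.7 and 71.7 FPKM in controls and 62.1, 78.5, 86.1 and 47.5 FPKM with ethanol, and SDs of 3 livers ranged from 1.43 to 20.3 over the 16 groups. Its highest means with the knockout label were at 6pm in both treatments. Hadhb differed by 0.08 and 0.05 and Acaa2 by -0.17 and 0.11, none called. Acaa2 with the knockout label was 0.44 higher at noon and Acaa2 in wild type 0.44 lower at midnight (both called, log2).

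Electrons from the acyl-CoA dehydrogenases pass to the electron transfer flavoprotein, whose subunits are Etfa and Etfb. Etfb (chromosome 7, 43444083 to 43457800) was raised in both genotype labels. Etfb read 174, 203 and 241 FPKM in wild-type controls and 204, 234 and 318 FPKM with ethanol. Etfb with the knockout label read 126, 172 and 262 FPKM in controls and 135, 199 and 336 FPKM with ethanol. The groups overlapped in both labels. The effects were 0.26 (SE 0.07, adjusted p = 0.00374) and, with the knockout label, 0.30 (SE 0.07, adjusted p = 0.000723). Mean Etfb at 6am, noon, 6pm and midnight was 180.1, 193, 214 and 222 FPKM in wild-type controls and 265, 261, 222 and 221 FPKM with ethanol. Knockout-labelled Etfb means were 149.9, 143, 222 and 180.0 FPKM in controls and 198, 243, 284 and 145 FPKM with ethanol, and SDs of 3 livers ranged from 0.674 to 46.0 over the 16 groups. Etfb was low in knockout-labelled ethanol livers at midnight and highest at 6pm. Gm45233 overlaps 53.01% of its exon bases on the same strand, so the split of their reads is uncertain.

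Etfa itself was not called over the 4 times in either label. Mean Etfa at 6am, noon, 6pm and midnight was 160.5, 169, 161 and 155 FPKM in wild-type controls and 161, 149.8, 144 and 140.0 FPKM with ethanol. Knockout-labelled Etfa means were 152, 135, 155 and 156 FPKM in controls and 144, 154, 162 and 96.4 FPKM with ethanol, and SDs of 3 livers ranged from 3.92 to 33.3 over the 16 groups. At midnight with the knockout label ethanol lowered it by -0.68 on the log2 scale (adjusted p = 0.00193), the smallest adjusted p of a member there. Etfdh, which passes the electrons on to ubiquinone, differed by -0.03 and 0.00. Decr1 and Eci1, auxiliary enzymes for unsaturated chains, differed by 0.02 and 0.05 in wild type and 0.02 and 0.08 with the knockout label, and none of these was called. All 3 were lower with the knockout label in controls.

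Peroxisomal members split. Acaa1b (chromosome 9, 119148023 to 119157093) fell in both labels while its close relative Acaa1a (chromosome 9, 119339676 to 119350299) rose in both. Acaa1b read 104, 294 and 392 FPKM in wild-type controls and 69.3, 106 and 316 FPKM with ethanol. Acaa1b with the knockout label read 129, 193 and 296 FPKM in controls and 24.9, 111 and 249.4 FPKM with ethanol. The ethanol medians lay at or near the lowest control, with overlap. Acaa1b differed by -0.95 (SE 0.28, adjusted p = 0.00858) in wild type and -1.14 (SE 0.28, adjusted p = 0.00183) with the knockout label. Mean Acaa1b at 6am, noon, 6pm and midnight was 278, 359.9, 193 and 267 FPKM in wild-type controls and 129.8, 254, 114 and 85.7 FPKM with ethanol. Knockout-labelled Acaa1b means were 203, 218, 193 and 197 FPKM in controls and 113, 138, 149 and 59.6 FPKM with ethanol, and SDs of 3 livers ranged from 21.04 to 129.6 over the 16 groups. The lowest liver, at 24.9 FPKM, was a knockout-labelled ethanol liver at midnight.

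Acaa1a read 32.4, 46.8 and 55.9 FPKM in wild-type controls and 47.2, 55.4 and 100.2 FPKM with ethanol. Acaa1a with the knockout label read 28.8, 35.7 and 55.6 FPKM in controls and 24.5, 49.7 and 90.8 FPKM with ethanol. For Acaa1a the ethanol medians were above the control medians, with overlap. The differences were 0.44 (SE 0.10, adjusted p = 0.00137) and 0.31 (SE 0.10, adjusted p = 0.0228). Mean Acaa1a at 6am, noon, 6pm and midnight was 38.6, 52.2, 44.2 and 47.3 FPKM in wild-type controls and 69.8, 74.9, 56.2 and 50.6 FPKM with ethanol. Knockout-labelled Acaa1a means were 30.6, 37.1, 52.1 and 36.6 FPKM in controls and 45.7, 70.9, 59.6 and 28.3 FPKM with ethanol, and SDs of 3 livers ranged from 2.34 to 26.3 over the 16 groups. Both genes encode 3-ketoacyl-CoA thiolases, and of the 50-base stretches in their transcripts 39.62% (Acaa1b) and 17.06% (Acaa1a) occur in another gene, mainly each other, so the split of reads between them is uncertain.

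Crot, the peroxisomal carnitine octanoyltransferase, was called for time of collection in all 4 arms. Crot read 34.2, 92.7 and 174 FPKM in wild-type controls and 57.2, 93.9 and 210.5 FPKM with ethanol. Crot with the knockout label read 29.6, 54.5 and 79.2 FPKM in controls and 40.02, 62.8 and 224 FPKM with ethanol. The arms overlapped widely. Mean Crot at 6am, noon, 6pm and midnight was 124, 139, 61.1 and 45.01 FPKM in wild-type controls and 190.5, 107, 71.3 and 86.9 FPKM with ethanol. Knockout-labelled Crot means were 74.8, 67.9, 36.5 and 40.5 FPKM in controls and 164, 77.5, 42.7 and 54.7 FPKM with ethanol, and SDs of 3 livers ranged from 1.94 to 68.9 over the 16 groups. Wild-type controls had their highest mean at noon and lowest at midnight, and the other 3 arms their highest at 6am and lowest at 6pm. Ethanol raised it by 0.37 (SE 0.13, adjusted p = 0.0256) in wild type and 0.46 (SE 0.13, adjusted p = 0.00548) with the knockout label, and the knockout label was lower in controls by -0.64 (SE 0.13, adjusted p = 0.000236).

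Ehhadh, the bifunctional peroxisomal enzyme and a classical PPARα target, spread more widely with ethanol than in controls in both labels. Ehhadh read 38.5, 88.9 and 114 FPKM in wild-type controls and 61.9, 84.2 and 1118 FPKM with ethanol. Ehhadh with the knockout label read 49.5, 72.1 and 99.8 FPKM in controls and 18.97, 68.7 and 267 FPKM with ethanol. A single wild-type ethanol liver at 6am reached 1118 FPKM, while its group mates were at 67.9 and 61.9. Mean Ehhadh at 6am, noon, 6pm and midnight was 88.4, 102, 60.3 and 87.3 FPKM in wild-type controls and 416, 96.7, 88.0 and 79.6 FPKM with ethanol. Knockout-labelled Ehhadh means were 74.7, 70.3, 72.8 and 72.3 FPKM in controls and 141, 69.3, 66.6 and 30.8 FPKM with ethanol, and SDs of 3 livers ranged from 1.59 to 608 over the 16 groups. The effects were 0.34 (SE 0.31, adjusted p = 0.435) and -0.27 (SE 0.31, adjusted p = 0.539), neither called. In that 6am liver Cidec, a lipid droplet gene on the adipocyte list, was at 49.3 FPKM against 1.47 and 1.42 in its group mates, while Adipoq, Plin1, Lep and Cfd were listed at 0 there.

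Decr2, the peroxisomal dienoyl-CoA reductase, was lowered with the knockout label (-0.37 (SE 0.13, adjusted p = 0.0267)) and gave -0.27 (SE 0.13, adjusted p = 0.121) in wild type. Mean Decr2 at 6am, noon, 6pm and midnight was 83.7, 96.0, 75.7 and 79.8 FPKM in wild-type controls and 74.7, 80.6, 80.8 and 48.4 FPKM with ethanol. Knockout-labelled Decr2 means were 57.9, 71.8, 98.7 and 66.1 FPKM in controls and 61.0, 77.8, 68.3 and 33.0 FPKM with ethanol, and SDs of 3 livers ranged from 4.37 to 33.5 over the 16 groups. The knockout-labelled call was lost without the midnight livers. Pex11a, a peroxisome division factor, was not called for ethanol. Mean Pex11a at 6am, noon, 6pm and midnight was 35.6, 39.4, 35.2 and 57.1 FPKM in wild-type controls and 65.6, 25.8, 58.2 and 38.5 FPKM with ethanol. Knockout-labelled Pex11a means were 28.6, 25.4, 47.1 and 32.6 FPKM in controls and 32.5, 24.7, 26.3 and 18.04 FPKM with ethanol, and SDs of 3 livers ranged from 1.31 to 68.5 over the 16 groups. With ethanol it was lower with the knockout label (-0.68 (SE 0.18, adjusted p = 0.00475)), a call lost without the midnight livers. Hsd17b4, the multifunctional enzyme of branched chains, differed by 0.07 and -0.10 and Eci2, an enoyl-CoA isomerase, by 0.08 and 0.33, none called, while Ech1, a dienoyl-CoA isomerase, rose with the knockout label (0.27 (SE 0.10, adjusted p = 0.0394)). Eci2 with the knockout label rose at 6am by 1.07 and at noon by 1.013 on the log2 scale.

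Of the ketogenic pair, Bdh1, the 3-hydroxybutyrate dehydrogenase of mitochondria (chromosome 16, 31422280 to 31458901), was higher with the knockout label. Bdh1 read 41.2, 57.7 and 78.8 FPKM in wild-type controls and 39.5, 50.7 and 63.6 FPKM with ethanol. Bdh1 with the knockout label read 63.7, 83.9 and 118 FPKM in controls and 53.6, 80.0 and 125 FPKM with ethanol. The knockout-labelled medians exceeded the highest wild-type liver in each treatment, and the lowest knockout-labelled livers still overlapped wild type. It was higher by 0.57 (SE 0.10, adjusted p = 3.77e-05) in controls and 0.67 (SE 0.10, adjusted p = 4.61e-06) with ethanol. Mean Bdh1 at 6am, noon, 6pm and midnight was 52.7, 66.6, 67.4 and 47.5 FPKM in wild-type controls and 52.5, 58.9, 41.2 and 47.6 FPKM with ethanol. Knockout-labelled Bdh1 means were 77.6, 102, 96.8 and 69.8 FPKM in controls and 92.1, 93.2, 68.4 and 69.8 FPKM with ethanol, and SDs of 3 livers ranged from 1.55 to 33.9 over the 16 groups. Ethanol lowered it in wild type at 6pm, by -0.67 on the log2 scale. An antisense gene, Gm15743, overlaps 13.71% of its exon bases.

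Acat1, the mitochondrial acetoacetyl-CoA thiolase, rose with ethanol in the knockout-labelled arm (0.29 (SE 0.11, adjusted p = 0.0375)) and gave 0.16 (SE 0.11, adjusted p = 0.275) in wild type. Mean Acat1 at 6am, noon, 6pm and midnight was 144, 144, 108 and 136 FPKM in wild-type controls and 162, 132, 163 and 139.6 FPKM with ethanol. Knockout-labelled Acat1 means were 122, 90.6, 119.8 and 108 FPKM in controls and 144, 134, 150.5 and 115 FPKM with ethanol, and SDs of 3 livers ranged from 3.75 to 37.3 over the 16 groups. Its knockout-labelled call was lost in 12 of 48 fits without 1 library.

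**Figure D5:**
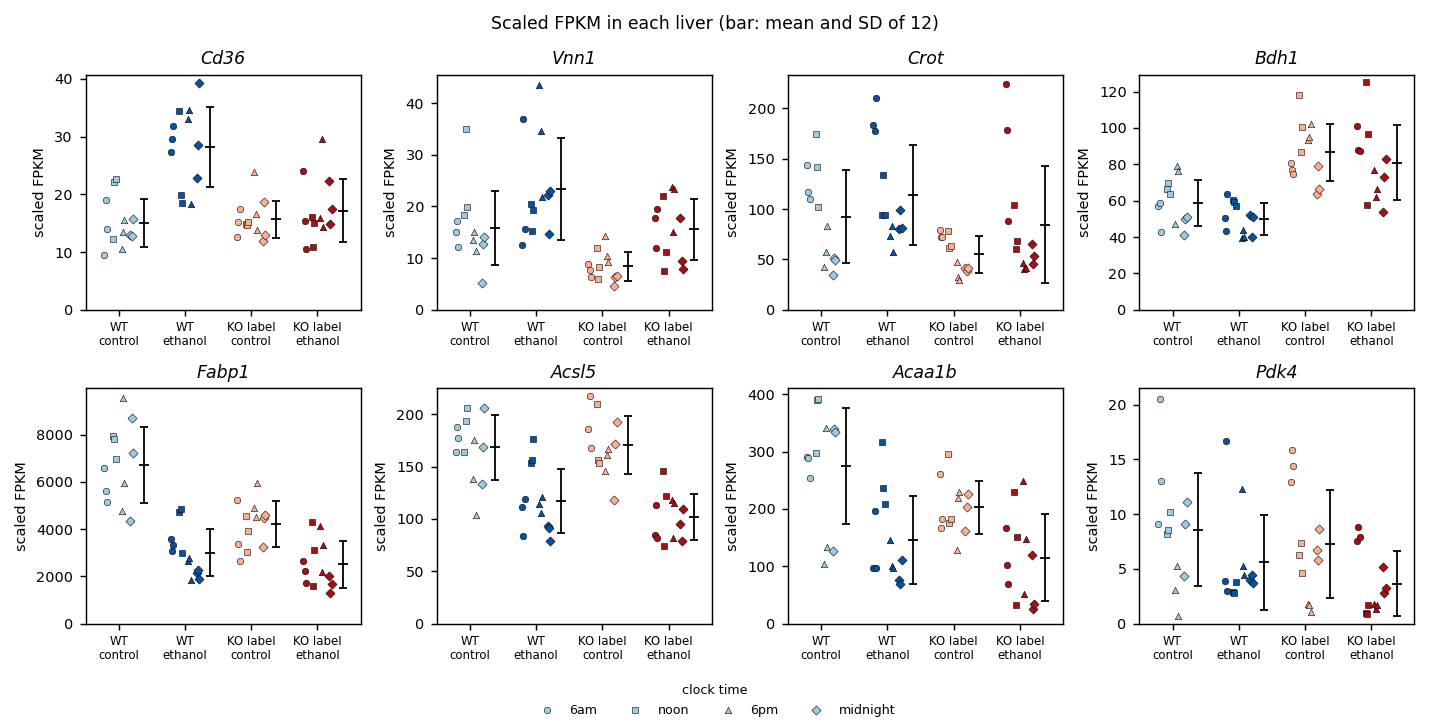
Scaled FPKM of 8 members (y axes, from 0) in every liver of the 4 arms, with marker shape for clock time and a bar for the mean and SD of 12. The wild-type Cd36 median is 29.1 with ethanol and 13.7 in controls, Bdh1 is higher with the knockout label, and Crot was called for time of collection in all 4 arms. Pdk4 was called for time in both control arms and not in wild-type ethanol livers. In knockout-labelled ethanol livers Pdk4 ran from 0.856 FPKM in a noon liver to 8.85 FPKM in a 6am liver.

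Cd36 (chromosome 5, 17781690 to 17888801) rose with ethanol in wild type, and its effect differed between the genotype labels. Cd36 read 9.55, 13.7 and 22.6 FPKM in wild-type controls and 18.3, 29.1 and 39.3 FPKM with ethanol. Cd36 with the knockout label read 11.9, 15.03 and 23.9 FPKM in controls and 10.6, 15.6 and 29.6 FPKM with ethanol. In wild type every ethanol liver but noon replicates 1 and 2 and 6pm replicate 2 lay above all controls, and the knockout-labelled arms covered nearly the same range. The ethanol effect was 0.89 (SE 0.15, adjusted p = 2.25e-05) in wild type and 0.10 (SE 0.15, adjusted p = 0.666) with the knockout label, 95% interval -0.21 to 0.40. Mean Cd36 at 6am, noon, 6pm and midnight was 14.2, 19.03, 13.2 and 13.8 FPKM in wild-type controls and 29.6, 24.2, 28.7 and 30.2 FPKM with ethanol. Knockout-labelled Cd36 means were 15.1, 14.9, 18.1 and 14.6 FPKM in controls and 16.6, 14.0, 19.97 and 18.2 FPKM with ethanol, and SDs of 3 livers ranged from 0.295 to 9.00 over the 16 groups. In wild type the ethanol mean exceeded the control mean at each time, least at noon. Kupffer cell and macrophage markers, cells that also express Cd36, had median sums of 134.5 FPKM in wild-type controls, 82.03 in wild-type ethanol livers, 218.6 in knockout-labelled controls and 138.5 in knockout-labelled ethanol livers, and their part was not tested. Of 7 such markers 6 were found, and their sums ranged from 78.6 to 254.6, 40.05 to 365.6, 187.2 to 678.6 and 66.1 to 486.3 FPKM in the same order of arms, with the defining marker Adgre1 not analysed here.

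Fabp1 (chromosome 6, 71199827 to 71205023), whose promoter is shown above, fell with ethanol in both labels. Fabp1 read 4325, 6773 and 9541 FPKM in wild-type controls and 1840, 2865 and 4852 FPKM with ethanol. Fabp1 with the knockout label read 2639, 4498 and 5940 FPKM in controls and 1290, 2199 and 4281 FPKM with ethanol. In both labels the ethanol median lay below the lowest control, and the arms overlapped. The effect was -1.19 (SE 0.15, adjusted p = 3.30e-07) in wild type and -0.80 (SE 0.15, adjusted p = 0.000142) with the knockout label. Mean Fabp1 at 6am, noon, 6pm and midnight was 5783, 7577, 6749 and 6748 FPKM in wild-type controls and 3325, 4182, 2420 and 2098 FPKM with ethanol. Knockout-labelled Fabp1 means were 3737, 3842, 5113 and 4110 FPKM in controls and 2185, 2982, 3218 and 1665 FPKM with ethanol, and SDs of 3 livers ranged from 204 to 2492 over the 16 groups. Knockout-labelled controls were already lower than wild-type controls, by -0.67 (SE 0.15, adjusted p = 0.00111).

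Vnn1, a pantetheinase (chromosome 10, 23894688 to 23905343), rose with ethanol in both labels and was lower with the knockout label in both treatments. Vnn1 read 5.20, 14.6 and 35.1 FPKM in wild-type controls and 12.5, 21.1 and 43.6 FPKM with ethanol. Vnn1 with the knockout label read 4.62, 7.98 and 14.3 FPKM in controls and 7.46, 16.4 and 23.7 FPKM with ethanol. The arms overlapped. The ethanol effect was 0.56 (SE 0.19, adjusted p = 0.0197) in wild type and 0.82 (SE 0.19, adjusted p = 0.00092) with the knockout label. Mean Vnn1 at 6am, noon, 6pm and midnight was 14.7, 24.4, 13.3 and 10.7 FPKM in wild-type controls and 21.7, 18.3, 33.3 and 19.98 FPKM with ethanol. Knockout-labelled Vnn1 means were 7.70, 8.70, 11.3 and 5.80 FPKM in controls and 16.4, 13.5, 20.7 and 11.7 FPKM with ethanol, and SDs of 3 livers ranged from 1.04 to 13.3 over the 16 groups. The wild-type call was lost in 3 of 13 settings.

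Pdk4, the kinase that switches off pyruvate dehydrogenase (chromosome 6, 5483351 to 5496309), differed among times of collection in both control arms. Pdk4 read 0.682, 8.80 and 20.5 FPKM in wild-type controls and 2.79, 3.94 and 16.7 FPKM with ethanol. Pdk4 with the knockout label read 1.06, 6.52 and 15.9 FPKM in controls and 0.856, 2.30 and 8.85 FPKM with ethanol. All arms overlapped. Mean Pdk4 at 6am, noon, 6pm and midnight was 14.2, 8.98, 2.99 and 8.17 FPKM in wild-type controls and 7.86, 3.14, 7.30 and 4.02 FPKM with ethanol. Knockout-labelled Pdk4 means were 14.4, 6.08, 1.53 and 7.08 FPKM in controls and 8.10, 1.15, 1.61 and 3.73 FPKM with ethanol, and SDs of 3 livers ranged from 0.275 to 7.68 over the 16 groups. Control means fell from 6am to 6pm and were higher again at midnight. Among knockout-labelled ethanol livers, mean Pdk4 ran from 8.10 FPKM at 6am to 1.15 FPKM at noon. Ethanol lowered it by -0.90 (SE 0.22, adjusted p = 0.00175) with the knockout label, and gave -0.52 (SE 0.22, adjusted p = 0.0696) in wild type. In wild type its effect was -1.39 at noon and 1.30 at 6pm, both called, where 2 of the 3 control livers at 6pm were among those of highest acute phase level (0.68 and 3.03 FPKM against 5.26 in replicate 1).

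Creb3l3, a liver transcription factor that acts with PPARα, was raised in both labels. Creb3l3 read 62.8, 86.2 and 101 FPKM in wild-type controls and 85.2, 97.0 and 196 FPKM with ethanol. Creb3l3 with the knockout label read 64.0, 89.3 and 109.9 FPKM in controls and 73.3, 106 and 181 FPKM with ethanol. All arms overlapped. The effects were 0.33 (SE 0.10, adjusted p = 0.0143) and 0.33 (SE 0.10, adjusted p = 0.0129). Mean Creb3l3 at 6am, noon, 6pm and midnight was 78.6, 79.4, 88.0 and 95.03 FPKM in wild-type controls and 123, 94.0, 135 and 89.4 FPKM with ethanol. Knockout-labelled Creb3l3 means were 73.9, 81.4, 106 and 90.8 FPKM in controls and 116, 128, 134 and 74.9 FPKM with ethanol, and SDs of 3 livers ranged from 0.944 to 63.3 over the 16 groups. The knockout-labelled call was lost on FPKM as deposited and without the 4 livers of highest acute phase level. Ppargc1b, a coactivator of mitochondrial gene programmes, was near the detection filter and not called for ethanol (0.07 and 0.01). Mean Ppargc1b at 6am, noon, 6pm and midnight was 0.706, 1.05, 0.828 and 0.647 FPKM in wild-type controls and 0.946, 1.15, 0.850 and 0.566 FPKM with ethanol. Knockout-labelled Ppargc1b means were 0.480, 0.833, 0.845 and 0.521 FPKM in controls and 0.833, 1.36, 0.397 and 0.372 FPKM with ethanol, and SDs of 3 livers ranged from 0.0170 to 0.469 over the 16 groups. Its call for time of collection came in knockout-labelled ethanol livers, where the noon mean was highest.

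Of 60 further genes of these pathways, also listed with earlier results of these data known, ethanol raised 15 and lowered 12 in wild type and raised 12 and lowered 11 with the knockout label. Of all genes, 16.6% were raised and 13.7% lowered in wild type, and 16.8% and 14.8% with the knockout label. Ppara itself was at 23.2, 29.9 and 38.5 FPKM in wild-type controls (lowest, median, highest) and 17.3, 21.7 and 40.3 with ethanol, a log2 difference of -0.36 (SE 0.14, adjusted p = 0.0437) that was lost in 16 of 48 fits without 1 library. Nudt7, a peroxisomal CoA hydrolase, fell most, by -2.01 in wild type and -1.36 with the knockout label, and Dbi, the acyl-CoA binding protein, by -1.09 and -0.58. Acox2, the branched-chain acyl-CoA oxidase, rose by 0.74 and 0.48. Abcd2, a peroxisomal transporter, rose by 0.80 in wild type, and Acsm1, a medium-chain synthetase, by 0.47 with the knockout label.

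The knockout label went with 21 of the 60 lower and 3 higher in controls, and 17 lower and 1 higher with ethanol. Of all genes, 16.9% were lower and 15.4% higher in controls, and 15.8% and 12.6% with ethanol. In controls Bdh2 was lower by -1.31 and Acsm1 by -0.56, while Oxct1, which uses ketone bodies outside the liver, was higher by 0.59. With ethanol Slc16a6 was lower by -0.74 and the monocarboxylate transporter Slc16a1 by -0.58, and Sirt3, the mitochondrial deacetylase, was higher by 0.30. Time of collection was called for 2, 21, 8 and 41 of the 60 in wild-type controls, wild-type ethanol, knockout-labelled control and knockout-labelled ethanol livers, against 8.35%, 20.3%, 12.7% and 38.2% of all genes. The ethanol effects of 8 differed between labels, 5 higher and 3 lower with the knockout label, against 3.69% and 4.32% of all genes.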

How the data were processed

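Liver RNA was poly(A)-selected and sequenced as single reads, per the labels' protocols. Reads were aligned with Novoalign to GRCm38, per the submitters' processing notes, whereas no annotation or counting tool is named in the sources used here. The deposited table holds FPKM per gene and library, computed by the authors. FPKM steps gave back whole reads for 100% of 15041 genes (relative tolerance 1e-11), and no column was left unused.

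A scale factor per library (trimmed mean of M-values) came from those reads, and log2(FPKM × factor + 0.5) was tested with limma 3.58.1 (limma-trend, R 4.3.3) in 1 fit of 16 group means over 48 libraries, with Benjamini-Hochberg adjustment over 13765 genes. Fold changes are on this offset scale, which understates those of low genes. Each p-value rests on 1 spread per gene, estimated between livers within all 16 groups of 3 mice. Livers of 1 arm therefore enter the calls of the other arms. Without wild-type ethanol 6am replicate 1, for example, 12 members were higher with the knockout label, against 8. Libraries of a group differed by more than sampling noise (chi-square per degree of freedom of at least 9.8), so none was counted as a duplicate. The members and lists were chosen with earlier results of these data known. Every member is named, and group values were printed for 16 members fixed with the design and up to 2 more per role with the smallest adjusted p. Of the 60 further genes, Ppara and up to 2 higher and 2 lower per comparison are named, except 1 that is not reported here. Gene positions come from GENCODE (GRCm38) and promoters from RefSeq (GRCm38.p6). Alternatives were other scale factors, pseudocounts of 0.1 and 1, no filter, limma-voom on the recovered reads, a replicate block, array weights, fits of 24 libraries, and leaving out each library. Added after seeing the data were fits without 4 livers of high acute phase level, without the liver with pancreas transcripts, without wild-type ethanol 6am replicate 1, and without the midnight livers.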

Additional observations from a re-analysis of the deposited data

Results flagged for a closer look

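The ethanol effect differed between the genotype labels, by limma's test of the difference, for 2 members and 5 of the further pathway genes named in the text. With the knockout label it was higher for Acads by 0.35, Sirt3 by 0.50, Dbi by 0.51 and Acsm1 by 0.38 on the log2 scale. It differed by -0.79 for Cd36, -0.79 for Abcd2 and -0.47 for Slc16a1. Adjusted p-values ran from 0.00455 (Dbi) to 0.0375 (Slc16a1), and the cause was not tested.

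The ethanol effect differed between the 4 times for Pdk4 in wild type, with a log2 range of 2.69 between its lowest and highest effect. With the knockout label 11 members did so. Their log2 ranges were 1.51 for Cpt1a, 0.71 for Acadvl, 0.75 for Acads, 1.11 for Hadh, 0.86 for Acaa2 and 0.87 for Etfa. They were 1.08 for Etfb, 1.08 for Decr1, 1.25 for Acaa1a, 1.0 for Hsd17b4 and 1.72 for Eci2. Acute phase genes were high in the knockout-labelled ethanol livers at midnight (8.95 to 9.54 on the log2 scale), and their part in these ranges was not tested. On FPKM as deposited the differences between labels of Acads, Sirt3, Dbi and Acsm1 were no longer called. The differences of Abcd2 and Acsm1 were lost without the 4 livers of highest acute phase level, and those of Abcd2 and Slc16a1 without the midnight livers. Groups held 3 livers, so single livers were not tested for lying apart.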

How the results depend on the processing

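Counts are of members and were 10 higher and 4 lower with ethanol in wild type and 8 and 6 with the knockout label. FPKM as deposited gave 1 higher and 14 lower with the knockout label, 10 differing between labels, 8 in control livers by label, time-of-collection counts of 4 (wild-type controls) and 14 (knockout-labelled ethanol), and 4 time-dependent ethanol effects with the knockout label. It reversed Acadvl (-0.074), Acaa2 (-0.15) and Decr1 (-0.23) with the knockout label. It applies no scale factor for RNA composition. Over all genes its time-of-collection calls went from 1150 to 1526 (wild-type controls) and from 5253 to 6139 (knockout-labelled ethanol). Its ethanol calls with the knockout label went from 4347 to 7301, and its time-dependent ones there from 1507 to 2343. Calls for a difference between labels went from 1102 to 3828, and those by label in controls from 4457 to 4947. Array weights, estimated gene by gene since the default estimate did not converge, gave 10 lower in wild type, 15 higher with the knockout label, 4 differing between labels, 22 by label in controls, time-of-collection counts of 11, 19 and 27 (wild-type control, wild-type ethanol, knockout-labelled control), time-dependent counts of 15 and 30, and 104 single-time calls against 45. Over all genes the time-dependent calls also went from 1458 to 4448 and from 1507 to 4603. The single-time calls over all genes rose at every time in both labels, for example from 1026 to 2700 at noon in wild type. The smallest of these counts, at 6pm with the knockout label, went from 976 to 1121. Fits of 24 libraries gave 7 for time of collection in wild-type ethanol livers and 3 and 3 time-dependent effects. Over all genes these calls went from 2789 to 3976, from 1458 to 2601 and from 1507 to 190.

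Without the 4 livers of highest acute phase level, wild type had 6 higher and 8 lower, the knockout label 4 higher, time of collection 1 and 8 in the wild-type arms, and the time-dependent count in wild type 0 by limma. Without the liver with pancreas transcripts that last count was 2. Without wild-type ethanol 6am replicate 1, 8 were lower and 8 called for time of collection in wild type, and time-dependent counts were 4 and 23. Over all genes, ethanol calls in wild type were then 4009 against 4170. Time of collection gave 2803 against 2789 of all genes in wild-type ethanol livers. Time-dependent calls over all genes were 1687 against 1458 in wild type and 1884 against 1507 with the knockout label. Without the midnight livers, 2 were lower in wild type, 14 higher with the knockout label, 7 and 5 differed by label, time of collection gave 2 (wild-type ethanol) and 3 (knockout-labelled ethanol), and 0 effects were time-dependent with the knockout label. Over all genes, ethanol calls without the midnight livers were 2885 against 4170 in wild type and 4498 against 4347 with the knockout label. Those by label were 3539 against 4457 in controls and 2766 against 3899 with ethanol. Time of collection gave 2385 against 2789 in wild-type ethanol livers and 2031 against 5253 in knockout-labelled ethanol livers. Without the 4 livers of highest acute phase level the ethanol calls over all genes were 4248 and 4000. Time-of-collection calls over all genes were then 529 against 1150 in wild-type controls and 3571 against 2789 in wild-type ethanol livers. Time-dependent calls over all genes in wild type were 867 against 1458, and 1719 without the liver with pancreas transcripts. The cause of these shifts was not tested. The other size factors, pseudocounts, the missing filter and limma-voom kept every count within 1.5 times.

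The numbers of same-numbered replicates do not pair the livers: correlations of their deviations ran from -0.567 to 0.4475. With the replicate block the time-dependent count in wild type was 2 against 1, and the other counts stayed within 1.5 times.

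Leaving out each library gave 7 to 11 higher and 3 to 8 lower in wild type, 5 to 12 and 4 to 7 with the knockout label, 2 to 3 differing between labels, 10 to 19 and 11 to 17 by label in controls and with ethanol, and 39 to 64 single-time calls. Time-of-collection counts were 1 to 2, 3 to 10, 2 to 9 and 22 to 29, and time-dependent counts 0 to 4 and 5 to 23. Of the values for single genes under these fits, 102 became called and 210 lost the call. With 3 livers a group, small differences may be missed.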

Other observations

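Median summed levels of other marker lists are given as values, in the order wild-type control, wild-type ethanol, knockout-labelled control and knockout-labelled ethanol livers. Endothelial markers summed to 62.3, 62.7, 76.7 and 65.8 FPKM, and stellate cell markers to 149.2, 146.8, 199.5 and 138.3 FPKM. Cholangiocyte markers summed to 4.08, 3.93, 5.13 and 3.18 FPKM, lymphocyte markers to 2.37, 1.22, 2.36 and 1.22 FPKM and adipocyte markers to 4.58, 3.55, 5.56 and 4.01 FPKM. Neutrophil markers, without Ly6g, which was not analysed here, summed to 2.58, 2.84, 4.75 and 12.2 FPKM, with up to 186.4 FPKM in 1 knockout-labelled ethanol liver. Their part in the results was not tested.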
